A study of Mus musculus with 6 samples.

Results

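A set of 10 genes of bone mineralization and phosphate handling (Alpl, Ibsp, Dmp1, Mepe, Phex, Mgp, Slc20a1, Slc20a2, Fam20c and Slc13a5) was followed in fracture callus of mice lacking Cyp24a1 and of their heterozygous littermates. They were taken as all probe sets of the array that the platform annotation assigns to 1 of these 10 symbols and to no other, which gave 20 of the 45037 probe sets tested, or 10 of the 18193 genes measured. In 8 of the 10 genes the mean was lower in null callus, against 50.3% of all genes. The 10 genes were chosen with earlier results of these data known, so such shares are a description only. For 3 of the 8 genes all 3 null values lay under all 3 heterozygous values. They were the phosphatase gene Alpl, the bone sialoprotein gene Ibsp and the citrate transporter gene Slc13a5. Their differences of means were -0.32, -0.56 and -0.39 on the log2 scale. Over all probe sets, 8.95% showed no overlap of the groups, in either direction. The osteocyte genes Dmp1, Mepe and Phex spread widely among the null arrays. On their probe sets with the highest mean, Mgp, Slc20a1, Slc20a2 and Fam20c differed by less than the larger of the 2 group SDs. After Benjamini-Hochberg adjustment in limma, 0 of the 20 probe sets were under 0.05.

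The null mice carry Cyp24a1 (-/-) and the littermates Cyp24a1 (+/-), so both groups carry at least 1 disrupted allele and no wild-type callus was included. Cyp24a1 encodes the mitochondrial hydroxylase that inactivates the hormonal form of vitamin D. All mice were 12 weeks old, of a C57BL6J x 129SV mixed background, and had a tibial osteotomy stabilised by an intramedullary rod, with callus (the repair tissue) taken at day 14. Total RNA of 3 null and 3 heterozygous samples was hybridised to Affymetrix Mouse 430_2 arrays, and the deposited values are on a log2 scale. The labels do not state that every sample is a different mouse. Xist, which is transcribed in females, was high on null replicate 1 and heterozygous replicate 1 and low on the others. Each group thus holds at least 2 mice, and the spread behind each p-value may be technical in part. With 3 arrays a group, precision is limited by their number.

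Null replicate 1 and heterozygous replicate 3 stood apart by low neutrophil and erythroid markers (list means of -2.99 and -3.55 for the 10 neutrophil genes, each gene centred on its mean of 6 arrays), with 1.43 to 1.96 elsewhere. Those 2 arrays are called marrow-poor here, and the difference of each member on its probe set with the highest mean is also given without them. Values of Xist and Y-linked transcripts on arrays that lack them, 2.18 to 3.52, serve as a guide to the level of a silent transcript. Both Cyp24a1 probe sets lay near it, at 3.12 to 3.65 in null and 2.71 to 3.69 in heterozygous callus, so these values do not check the genotype labels. Of the member probe sets, 17 lay above this guide on all 6 arrays and 3 on none. The osteoblast markers of the callus, among them Col1a1, Col1a2, Sp7 and Pth1r, all lay above it, as did all 12 skeletal muscle markers. In such bulk tissue, fewer cells of a type and less RNA per cell cannot be told apart.

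Bone mineral forms when phosphate and calcium reach the collagen matrix and the inhibitors of crystal growth are removed. Alpl, the tissue-nonspecific alkaline phosphatase on osteoblasts and hypertrophic chondrocytes, hydrolyses the inhibitor pyrophosphate and frees phosphate, while the transporters of the Slc20 family carry phosphate into cells. Ibsp, Dmp1 and Mepe are acidic, phosphorylated matrix proteins of one family, Fam20c is the secretory-pathway kinase that phosphorylates such proteins, and Phex is the osteocyte endopeptidase whose loss in humans causes X-linked hypophosphataemia. Mgp, matrix Gla protein, inhibits calcification of cartilage and vessels, and Slc13a5 carries citrate, a component of bone mineral, into cells.

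Ibsp, Dmp1 and Mepe lie next to one another in the genome, with Ibsp between Dmp1 and Mepe and no other protein-coding gene between them in RefSeq. RefSeq's table on GRCm38.p6 gave promoter windows for 8 of the 10 members, 12 windows in all, and the 250 bases before each start were searched. Motifs were sought on both strands. The core recognised by Runx factors was searched as AACCACA, and the box of guanines and cytosines bound by Sp factors was searched as GGGCGG. The box bound by the NF-Y factor was searched as CCAAT, and the element that positions the start of many genes was searched as TATAAA. The last was the DR3 type of vitamin D response element, 2 hexamer repeats spaced by 3 bases. The windows of the adjacent Dmp1, Ibsp and Mepe, and of Alpl and Slc13a5, are shown because these are the genes that differed without overlap or varied together, with every matched motif in capitals.
Ibsp, chr5:104299037-104299286, plus strand: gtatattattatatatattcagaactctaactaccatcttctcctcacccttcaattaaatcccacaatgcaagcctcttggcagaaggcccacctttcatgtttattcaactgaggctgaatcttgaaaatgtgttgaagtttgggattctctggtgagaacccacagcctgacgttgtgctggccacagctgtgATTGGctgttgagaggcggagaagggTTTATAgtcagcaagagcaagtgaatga
Dmp1, chr5:104197325-104197574, plus strand: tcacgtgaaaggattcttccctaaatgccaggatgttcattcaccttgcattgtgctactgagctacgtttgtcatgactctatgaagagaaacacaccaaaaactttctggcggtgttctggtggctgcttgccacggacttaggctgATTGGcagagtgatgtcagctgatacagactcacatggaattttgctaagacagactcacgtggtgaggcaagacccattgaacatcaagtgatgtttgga
Dmp1, chr5:104202367-104202616, plus strand: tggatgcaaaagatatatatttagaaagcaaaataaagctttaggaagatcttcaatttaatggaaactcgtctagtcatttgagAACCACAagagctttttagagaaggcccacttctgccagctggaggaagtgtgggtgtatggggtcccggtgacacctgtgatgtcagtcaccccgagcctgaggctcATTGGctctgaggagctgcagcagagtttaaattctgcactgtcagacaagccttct
Mepe, chr5:104325079-104325328, plus strand: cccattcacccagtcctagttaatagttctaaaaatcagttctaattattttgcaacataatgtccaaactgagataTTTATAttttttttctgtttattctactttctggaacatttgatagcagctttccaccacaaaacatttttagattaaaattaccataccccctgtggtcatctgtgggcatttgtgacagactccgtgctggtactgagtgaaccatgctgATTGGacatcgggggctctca
Alpl, chr4:137766476-137766725, minus strand: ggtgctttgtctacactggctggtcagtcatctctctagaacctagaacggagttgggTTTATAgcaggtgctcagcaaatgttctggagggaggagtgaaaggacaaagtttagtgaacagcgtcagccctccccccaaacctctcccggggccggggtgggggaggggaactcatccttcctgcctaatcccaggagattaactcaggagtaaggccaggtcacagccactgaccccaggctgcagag
Alpl, chr4:137796385-137796634, minus strand: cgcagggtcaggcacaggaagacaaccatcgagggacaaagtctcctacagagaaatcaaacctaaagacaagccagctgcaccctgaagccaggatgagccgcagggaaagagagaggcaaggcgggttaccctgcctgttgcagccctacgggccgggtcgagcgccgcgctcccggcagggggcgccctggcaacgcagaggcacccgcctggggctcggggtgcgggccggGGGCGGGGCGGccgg
Slc13a5, chr11:72266605-72266854, minus strand: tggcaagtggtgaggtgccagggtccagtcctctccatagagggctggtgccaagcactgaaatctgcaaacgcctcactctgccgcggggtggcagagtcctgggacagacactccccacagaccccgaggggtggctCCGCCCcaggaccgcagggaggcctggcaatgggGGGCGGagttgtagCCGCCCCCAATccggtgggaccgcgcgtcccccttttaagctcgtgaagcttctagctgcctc
Slc13a5, chr11:72267162-72267411, minus strand: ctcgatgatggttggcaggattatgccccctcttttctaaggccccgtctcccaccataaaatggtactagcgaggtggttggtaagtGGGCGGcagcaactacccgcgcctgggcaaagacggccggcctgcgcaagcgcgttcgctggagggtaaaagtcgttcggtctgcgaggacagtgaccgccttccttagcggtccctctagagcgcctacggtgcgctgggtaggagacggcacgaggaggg
The Ibsp window holds TATAAA with its first base at -28 and CCAAT at -54 from the start, both on the reverse strand. Its GC content is 43.6%. CCAAT stood in 7 of the 12 windows, and in 33.8% of all 32851 windows. TATAAA stood in 3 of the 12 windows (Ibsp, Mepe and 1 of 2 for Alpl), and in 12.4% of all windows. The Mepe match began at -173 and the Alpl match at -192, both on the reverse strand and farther from the start than that of Ibsp. AACCACA stood in 2 of the 12 windows, 1 of 2 for Dmp1 and 1 of 2 for Slc20a1, and in 4.4% of all windows. GGGCGG stood in 6 of the 12 windows, from Alpl, Slc20a1, Fam20c and Slc13a5, and in 32.7% of all windows, where the overlapping pair of Alpl, and a match that adjoins CCAAT in 1 Slc13a5 window without sharing a base, are each shown as 1 run of capitals. The GC content of the windows was 38.0% for Mepe, 39.2% for Phex, 45.6% and 46.0% for Dmp1, 65.6% and 61.6% for Slc13a5 and 81.2% for Fam20c, against a median of 52.4% over all windows. The spaced vitamin D element was found in 0 of the 12 windows and in 0.0396% of all windows, which says only that these letters are absent from these bases.

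The comparison asked which mineralization transcripts differ in callus when both Cyp24a1 alleles are disrupted. Alpl (1423611_at) was at 7.92, 8.01 and 7.87 in null callus, against 8.35, 8.16 and 8.26 in heterozygous callus. Every null value lay under every heterozygous value. The means were 7.93 ± 0.07 and 8.26 ± 0.09 (SD, n = 3 each), a null minus heterozygous difference of -0.32 (SE 0.10, 95% interval -0.57 to -0.07), or 1.25-fold lower in null callus. In limma the unadjusted p was 0.0190 and the adjusted p was 0.999. The exact permutation p was 0.1, the smallest that 3 against 3 arrays allow.

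Ibsp, the bone sialoprotein that binds hydroxyapatite and nucleates its crystals, had values of 9.46, 9.59 and 9.84 in null callus and 10.44, 10.12 and 10.01 in heterozygous callus on probe set 1417484_at. The groups did not overlap, and the gap between the highest null and the lowest heterozygous array was narrower than the spread within either group. The means were 9.63 ± 0.19 and 10.19 ± 0.22 (SD, n = 3 each). The difference was -0.56 (SE 0.16, 95% interval -0.95 to -0.17), or 1.48-fold lower in null callus, with an unadjusted p of 0.0115 and an adjusted p of 0.999 in limma. Its other probe set, 1417485_at, was at 7.20, 7.78 and 7.76 in null callus, against 8.69, 7.55 and 8.001 in heterozygous callus. There the groups overlapped through heterozygous replicate 2, with a difference of -0.50 (SE 0.31), or -0.77 without that array and -0.20 without heterozygous replicate 1.

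Slc13a5, the citrate transporter, was at 6.59, 6.30 and 6.44 in null callus, against 6.77, 6.70 and 7.003 in heterozygous callus on probe set 1435936_at. All null values were again the lower ones. The means were 6.44 ± 0.14 and 6.83 ± 0.16 (SD, n = 3 each), with a difference of -0.39 (SE 0.13, 95% interval -0.70 to -0.07), or 1.31-fold lower in null callus. The unadjusted p was 0.0234 and the adjusted p was 0.999 in limma. Probe set 1459729_at, at 3.73, 3.69 and 3.59 in null callus and 4.20, 3.54 and 4.74 in heterozygous callus, lay little above the silent level and overlapped through heterozygous replicate 2. Its difference of -0.49 (SE 0.29) became -0.20 without heterozygous replicate 3 and -0.80 without heterozygous replicate 2.

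These 3 probe sets were the members at an unadjusted p under 0.05, 3 of 20, where 3.69% of all probe sets reached it and 2.06% did so with the lower level in null callus. Across all probe sets 0 passed limma's adjusted test, with 1660 at the unadjusted threshold. The groups did not overlap in 4 of the 20, the fourth being the silent Phex probe set, against 8.95% of all probe sets in either direction. Without both marrow-poor arrays the differences were -0.31 for Alpl, -0.57 for Ibsp and -0.37 for Slc13a5, each as large, to within 0.02, as with them. Leaving out null replicate 2 gave 7 member probe sets at the unadjusted threshold, against 4.31% of all probe sets, and all 3 Dmp1 probe sets, Mepe and Phex were among them while Slc13a5 (unadjusted p 0.0769 in limma) was not. Leaving out heterozygous replicate 2 gave 5, against 2.82% of all, and leaving out null replicate 3 gave 1, Ibsp, against 2.33% of all. Slc13a5 1435936_at had an unadjusted p of 0.0593 in limma without null replicate 3 and of 0.0709 without heterozygous replicate 3. Alpl had 0.0629 without null replicate 3 and 0.0676 without heterozygous replicate 1. Ibsp 1417484_at was under 0.05 whichever single array was left out. Without both marrow-poor arrays Alpl had an unadjusted p of 0.0726 in limma.

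**Figure D1:**
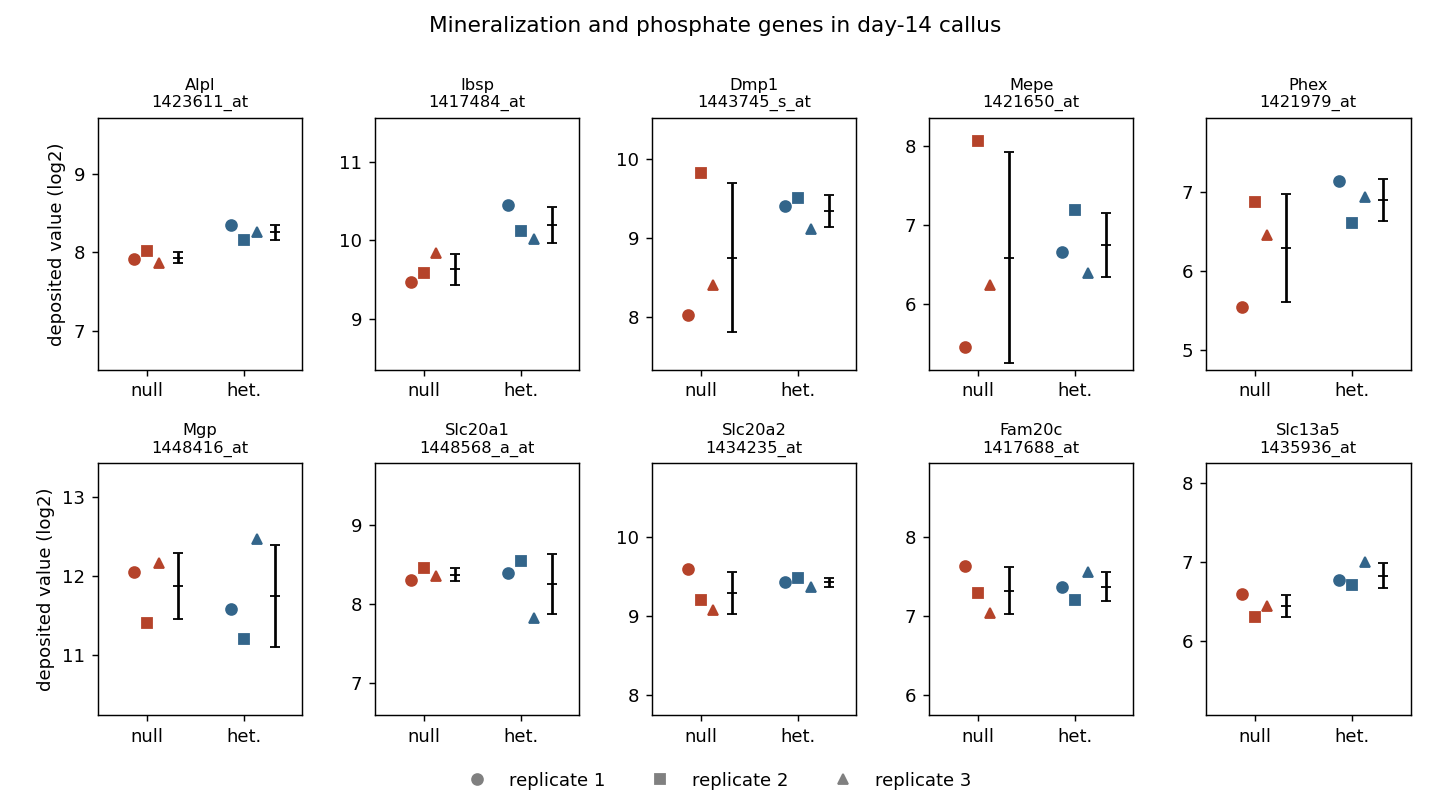
Deposited log2 value of each of the 10 genes on its probe set with the highest mean, for null (red, left) and heterozygous (blue, right) callus, with 1 point per array, symbols for replicates, and bars for the mean and SD of 3 arrays. Each panel spans the same number of log2 units around its own centre; Alpl, Ibsp and Slc13a5 show no overlap of the groups, and Mepe runs from 5.45 to 8.07 among null arrays.

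Of the 13 chondrocyte markers, 8 were lower and 5 higher in mean in null callus, and 0 were at an unadjusted p under 0.05 in limma. The 2 with the lowest p and Acan are given here. Col10a1, the collagen of hypertrophic chondrocytes, was at 3.11, 4.44 and 7.71 in null callus, against 7.79, 6.74 and 7.35 in heterozygous callus. Null replicates 1 and 2 were thus low for it and null replicate 3 was not. Col2a1 was at 8.16, 7.04 and 9.28 in null callus, against 9.76, 8.92 and 9.13 in heterozygous callus. Acan, the cartilage proteoglycan gene, went the other way, at 7.39, 5.93 and 6.65 in null callus, against 6.22, 6.14 and 5.71 in heterozygous callus. The means of the 13 chondrocyte markers ran from -0.59 to 0.23 over null and from -0.07 to 0.36 over heterozygous arrays, with Ihh, Hapln1 and Matn1 at the silent level. Of the 8 osteoblast markers, 5 were higher and 3 lower in mean in null callus. Their list means ran from -0.14 to 0.09 over null and from -0.29 to 0.26 over heterozygous arrays. Col1a1 differed by 0.03 (SE 0.21), Ifitm5 by -0.34 (SE 0.21) and Cthrc1 by 0.43 (SE 0.41). All 6 endothelial and 6 of 7 smooth muscle markers were higher in mean in null callus, and all 12 skeletal muscle markers were lower. All 7 macrophage markers were higher in mean in null callus, with list means of -0.39 to 0.99 over null and -0.75 to 0.13 over heterozygous arrays. In limma, 2 of the 7 had an unadjusted p under 0.05, Mrc1 (difference 0.86, p 0.0271) and Cd163 (1.19, p 0.0299). The smooth muscle marker Tagln (0.37, p 0.0467) did so too, and each of these had an adjusted p of 0.999. The part of these cell types in the Alpl and Ibsp differences was not tested.

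Dmp1, dentin matrix protein, made by osteocytes and needed for their maturation and for phosphate balance, was at 8.03, 9.83 and 8.41 in null callus, against 9.40, 9.51 and 9.12 in heterozygous callus on probe set 1443745_s_at. Null replicate 2 was the highest of the 6 arrays and the other null arrays were the lowest. The means were 8.75 ± 0.95 and 9.34 ± 0.20 (SD, n = 3 each), a difference of -0.59 (SE 0.45, 95% interval -1.67 to 0.49). The other Dmp1 probe sets differed by -0.54 (1443746_x_at) and -0.43 (1426005_at) with the same order of the null arrays, and the suffixes _s_at and _x_at mark probe sets that can match more than 1 transcript. The Dmp1 difference on 1443745_s_at was -1.13 without null replicate 2, at an unadjusted p of 0.00133 in limma and an adjusted p of 0.965, and -0.23 without null replicate 1.

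Mepe, the matrix extracellular phosphoglycoprotein of osteocytes, whose acidic C-terminal peptide inhibits mineralization, had the widest range of the 10 genes. It was at 5.45, 8.07 and 6.23 in null callus, against 6.65, 7.18 and 6.39 in heterozygous callus. Null replicate 2 stood 6.14-fold above null replicate 1, while the heterozygous arrays spanned 1.74-fold. The means were 6.58 ± 1.34 and 6.74 ± 0.41 (SD, n = 3 each), a difference of -0.16 (SE 0.64, 95% interval -1.70 to 1.39). The sign turned with single arrays, at -0.90 without null replicate 2 and 0.41 without null replicate 1.

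Phex, the endopeptidase, was at 5.54, 6.88 and 6.45 in null callus, against 7.15, 6.62 and 6.94 in heterozygous callus on probe set 1421979_at. Null replicate 1 was the lowest of the 6 arrays, and null replicate 2 lay inside the heterozygous range. The means were 6.29 ± 0.68 and 6.90 ± 0.27 (SD, n = 3 each), a difference of -0.61 (SE 0.34, 95% interval -1.43 to 0.22), the largest in size of the 20 probe sets, or -0.23 without null replicate 1 and -0.90 without null replicate 2. Probe set 1450445_at lay at the silent level on all arrays (2.42 to 2.68) and gives no fold.

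Null replicate 1 was thus the lowest array for Ibsp, Dmp1, Mepe and Phex, and null replicate 2 the highest for Dmp1 and Mepe. Besides being marrow-poor, null replicate 1 had high Xist. The other array with high Xist, heterozygous replicate 1, was the highest for Alpl, Ibsp and Phex. The part of sex was not tested. Without both marrow-poor arrays the differences were -0.34 for Dmp1 (1443745_s_at), 0.23 for Mepe and -0.21 for Phex, so the sign for Mepe turned. Of the 7 osteocyte markers, none of them a member here, 5 were higher in mean in null callus and 2, Sost and Ptprz1, were lower. Sost, the sclerostin gene, was at 4.80, 5.96 and 5.02 in null callus and 5.44, 5.82 and 5.38 in heterozygous callus. Ptprz1 was at 4.47, 5.31 and 5.04 in null callus, against 5.22, 5.43 and 5.60 in heterozygous callus. Pdpn, among the 5, was at 9.60, 7.94 and 8.49 in null callus, against 8.40, 8.07 and 9.001 in heterozygous callus, with null replicate 1 the highest array. The mean of all 7 osteocyte markers ran from -0.09 to 0.15 over null and from -0.11 to 0.14 over heterozygous arrays, with Fgf23 at the silent level on every array. Osteoclast markers were also low on null replicate 1 (-0.74) and highest on null replicate 2 (0.41), against -0.07 to 0.15 over heterozygous arrays. The skeletal muscle mean was lowest on null replicate 1 (-0.40). The part of these cells in the Dmp1, Mepe and Phex values was not tested.

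**Figure D2:**
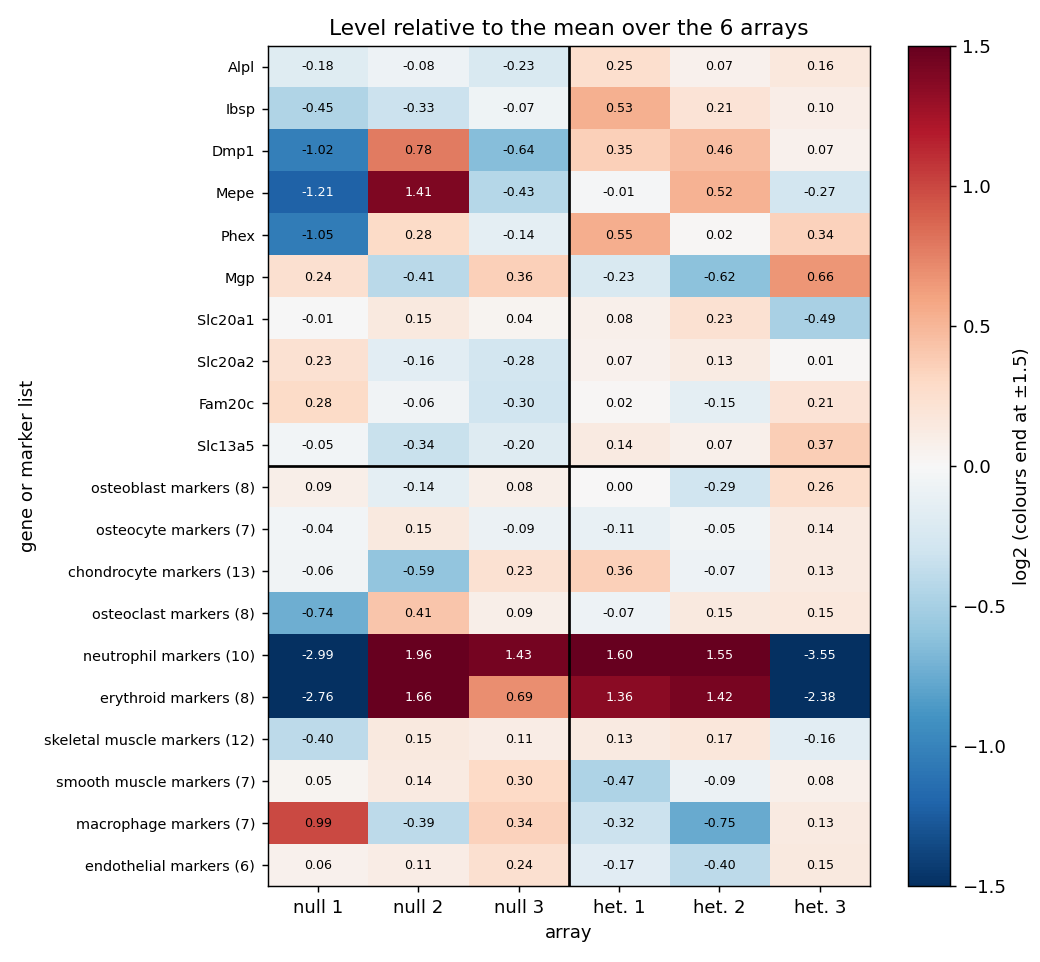
Level on each array (columns) relative to the mean over the 6 arrays, in log2 units, for the 10 genes (above the line, 1 probe set each) and for the mean of each marker list (below it, number of genes in brackets), with red above and blue below the mean. Dmp1, Mepe and Phex are low on null replicate 1, as are osteoclast (-0.74), neutrophil (-2.99) and erythroid markers (-2.76).

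Genes near in pattern were sought among those with a mean above the median of all probe sets. Of these, the genes whose centred values over 6 arrays lay closest to those of Mepe were Hspa1a (root mean square difference 0.22), Aldh1a7 (0.28) and Tesc (0.33). Hspa1a encodes an inducible heat shock protein. Hspa1a was at 4.22, 6.46 and 4.99 in null callus, against 5.50, 5.73 and 4.61 in heterozygous callus. Those closest to Dmp1 were Net1 (0.23), Slc9b2 (0.26) and the catalase gene Cat (0.26). Both sets take in arrays that differ in marrow content, and closeness over 6 arrays is a description only.

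The phosphate importers showed small differences. Slc20a1 (1448568_a_at) was at 8.30, 8.46 and 8.35 in null callus, against 8.40, 8.55 and 7.82 in heterozygous callus, with the groups overlapping and heterozygous replicate 3 apart. The difference was 0.12 (SE 0.20, 95% interval -0.36 to 0.59), and it was -0.10 without heterozygous replicate 3. Its probe set 1438824_at differed by -0.02 (95% interval -1.13 to 1.08), and 1446441_at lay at the silent level. Slc20a2, the other importer, was at 9.60, 9.20 and 9.08 in null callus and 9.43, 9.49 and 9.38 in heterozygous callus on 1434235_at. The heterozygous values lay inside the null range, with a difference of -0.14 (SE 0.15, 95% interval -0.50 to 0.23), or -0.03 without null replicate 3 and -0.29 without null replicate 1. For the value without null replicate 1, limma gave an unadjusted p of 0.0461 and an adjusted p of 0.911. On 1451768_a_at the difference was -0.20 (SE 0.17).

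Mgp, the calcification inhibitor, was at 12.05, 11.40 and 12.17 in null callus, against 11.58, 11.20 and 12.47 in heterozygous callus. The groups overlapped fully, with means of 11.87 ± 0.41 and 11.75 ± 0.65 (SD, n = 3 each). The difference was 0.13 (SE 0.36, 95% interval -0.74 to 0.995), and leaving out single arrays moved it between -0.15 (without heterozygous replicate 2) and 0.49 (without heterozygous replicate 3). Fam20c, the kinase, was at 7.63, 7.29 and 7.05 in null callus, against 7.37, 7.20 and 7.56 in heterozygous callus on 1417688_at. Its difference of -0.05 (SE 0.18, 95% interval -0.49 to 0.38) turned in sign when null replicate 3 (0.086) or heterozygous replicate 3 (0.039) was left out. The other Fam20c probe sets differed by -0.04 (1443827_x_at) and by -0.14 (1457648_x_at, at the silent level). The intervals for Mgp and for the importers allow differences in either direction, so equal levels are not shown.

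**Figure D3:**
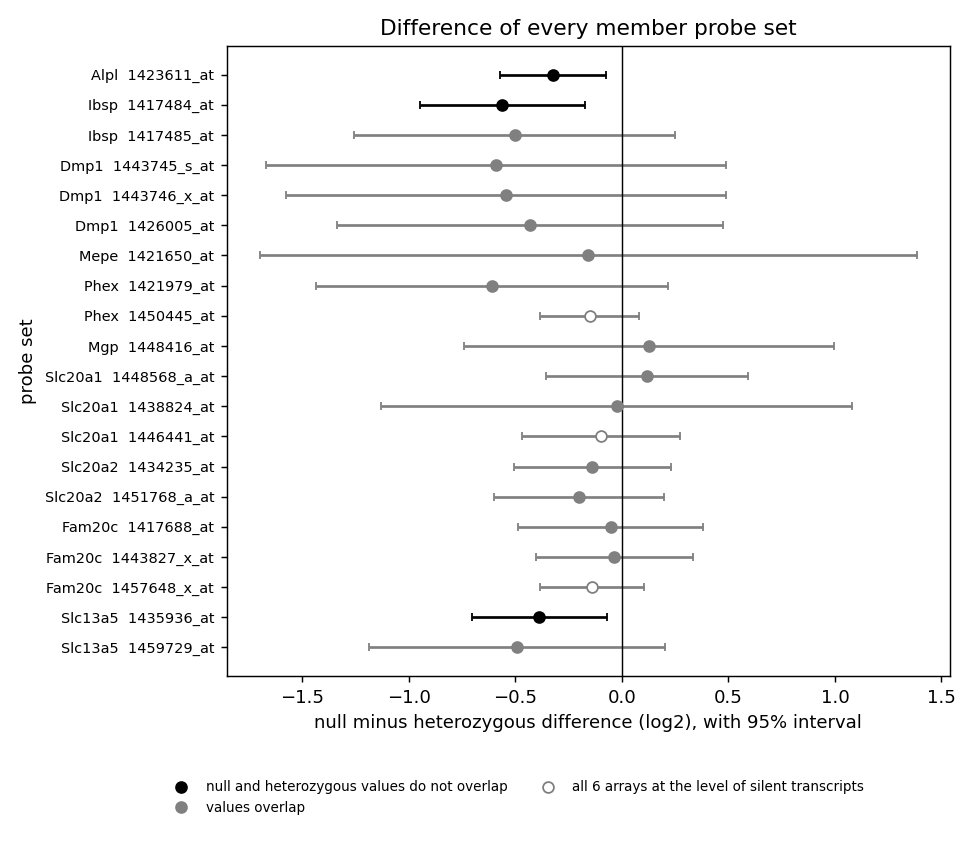
Null minus heterozygous difference (log2, x axis) of all 20 probe sets of the 10 genes (y axis), with limma's 95% interval. Filled black points mark groups without overlap, open points probe sets at the silent level on all 6 arrays (Phex 1450445_at among them, whose groups did not overlap either); only the intervals of Alpl, Ibsp 1417484_at and Slc13a5 1435936_at lie wholly under 0.

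Related genes were counted from lists of pyrophosphate and matrix vesicle, phosphate transport and hormone, bone matrix protein, gamma-carboxylation and citrate genes, of which 44 of 49 were measured and the others are not analysed here. None of the 44 passed limma's adjusted test. At an unadjusted p under 0.05 in limma, 1 had the higher level in null callus, against 2.06% of all genes. With the lower level there were 0, against 442 of all 18193 genes. In 32 of the 44 the mean was higher in null callus, against 9033 of all 18193 genes. The median difference of the 44 was 0.08, against -0.24 for the 10 mineralization genes and -0.002 for all genes.

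The pyrophosphate and matrix vesicle list had 5 of 7 genes higher in mean and a median of 0.11. Its members with the lowest p were the vesicle annexin gene Anxa2 at 0.55 (SE 0.28), the sphingomyelinase gene Smpd3 at -0.34 (SE 0.19) and the ectonucleotidase gene Nt5e at 0.32 (SE 0.19). Ank, which exports pyrophosphate and so opposes Alpl, differed by 0.11 (SE 0.45). Of the 12 phosphate transport and hormone genes, 8 were higher in mean, with a median of 0.06. Slc9a3r1, a scaffold of phosphate transporters in kidney, differed by 0.16 (SE 0.11), and Slc34a3 and Cyp27b1 lay at the silent level, as did Slc34a1, Kl and Fgf23. The phosphate exporter gene Xpr1 was at 7.9996, 9.33 and 9.56 in null callus, against 8.87, 9.36 and 8.20 in heterozygous callus, lowest on the 2 marrow-poor arrays.

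Of 11 bone matrix protein genes, 8 were higher in mean, with a median of 0.04. Ifitm5, an osteoblast membrane protein gene, differed by -0.34 (SE 0.21), the kinase paralog gene Fam20a by 0.24 (SE 0.25), and Dspp lay at the silent level. The gamma-carboxylation list holds enzymes that make Mgp active, and also Ucma and Gas6, which are Gla proteins like Mgp. It had 5 of 6 genes higher, a median of 0.19, and no member at the unadjusted threshold. Its members with the lowest p were Ucma at 0.17 (SE 0.16), Gas6 at 0.24 (SE 0.31) and Vkorc1 at 0.22 (SE 0.33). Of 8 genes on the citrate list, which takes in other Slc13 family genes, 6 were higher, with a median of 0.08. Acly, the enzyme that splits cytosolic citrate, was at 8.94, 9.37 and 8.94 in null callus, against 8.59, 8.33 and 8.65 in heterozygous callus. The Acly groups did not overlap and lay in the opposite order to those of Slc13a5, with a difference of 0.56 (SE 0.16), an unadjusted p of 0.0121 and an adjusted p of 0.999 in limma. Slc13a4 and Slc13a3, of the same gene family as Slc13a5, differed by 0.09 (SE 0.11) and 0.13 (SE 0.20).

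**Figure D4:**
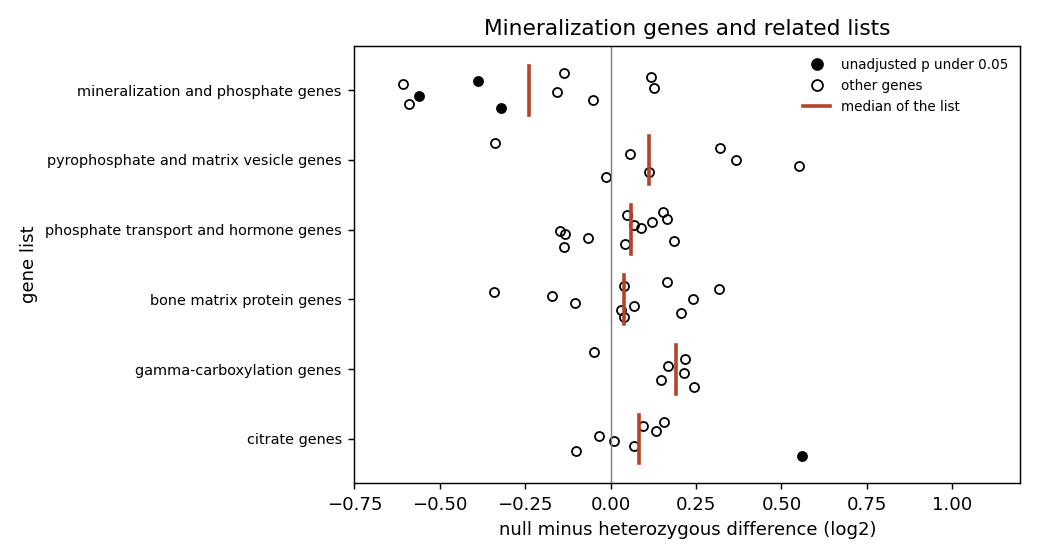
Null minus heterozygous difference (log2, x axis) of each gene, 1 probe set per gene, in the 10 mineralization and phosphate genes and in 5 related lists (y axis). Filled points have an unadjusted p under 0.05 and red lines mark each list's median, which is -0.24 for the mineralization genes and between 0.04 and 0.19 for the other lists.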

How the data were processed

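Callus RNA of 3 null and 3 heterozygous samples was measured on Affymetrix Mouse 430_2 arrays, per the labels' protocols. The deposited values were taken to be log2 from their range (1.65 to 14.49, array medians 4.55 to 4.59), and the steps behind them (software, summarisation, normalisation) are not given in the sources read. Nearly equal distributions mean that a shift of all genes together would not show. After 64 control probe sets were left out, 45037 were tested in R 4.3.3 by limma 3.58.1 (moderated by eBayes, 4 residual and 2.50 prior degrees of freedom, two-sided, Benjamini-Hochberg adjustment over all probe sets, threshold 0.05). The script was tested on simulated data. Probe sets were named by the platform annotation, and a gene in a list by its probe set with the highest mean. All probe sets of members were named, as were up to 3 genes per related list with the lowest p. The 3 genes nearest in pattern, among genes with a mean above the median of all probe sets, were named for the 2 members of widest range. Ank, Xpr1, Sost, Ptprz1, Pdpn, Acan and the other marker genes given with values were chosen after their values were seen. The members and lists were chosen with earlier results of these data known. Other settings were 1 probe set per gene, probe sets above the median level alone, a robust prior with a trend, weighted arrays, median centring, quantile normalisation, and leaving out arrays.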

Additional observations from a re-analysis of the deposited data

How the results depend on the processing

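No probe set passed the adjusted threshold under any of the 13 other settings (lowest adjusted p of a member 0.462). At the unadjusted threshold the count over all probe sets, 1660, was 4631 with array weights, 746 with the filter at the median level and 771 with 1 probe set per gene (both with fewer tested), 3453 without both marrow-poor arrays, and 1048 to 2721 when single arrays were left out. The count of member probe sets, 3, ran from 1 to 7 over single arrays left out. The members' median, -0.24, kept its sign throughout. Of 245 member differences under other settings 226 kept their sign, and 14 of 20 probe sets never turned. Leaving out single arrays moved Mepe from -0.90 to 0.41, Mgp from -0.15 to 0.49, Slc20a1 1438824_at from -0.54 to 0.26, Slc20a1 1448568_a_at from -0.10 to 0.26, Fam20c 1417688_at from -0.21 to 0.086 and Fam20c 1443827_x_at from -0.15 to 0.062. Slc20a1 1438824_at was 0.36 with array weights. Without both marrow-poor arrays Mepe was 0.23, Slc20a1 1438824_at 0.012 and Slc20a1 1448568_a_at -0.064. Mgp moved from 0.13 to 0.40, Slc20a2 1434235_at from -0.14 to -0.32 and Fam20c 1417688_at from -0.05 to -0.12. Ibsp 1417485_at moved from -0.50 to -0.35, Dmp1 1426005_at from -0.43 to -0.10 and Slc13a5 1459729_at from -0.49 to -0.23. The cause was not tested. No paired analysis was possible because the labels give no replicate numbers or litters. Probe sets near the silent level compress differences.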
